A study of Mus musculus with 11 samples.

Results

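Bile acid synthesis and canalicular export were followed in developing mouse liver through 10 genes: Cyp7a1, Cyp8b1, Cyp27a1, Cyp7b1, Baat, Slc27a5, Slc10a1, Abcb11, Abcc2 and Abcb4. The genes were taken from the gene names of the array files, with every probe that carries 1 of these names, which gave 13 probes of the 41174 on the array and 10 of its 27962 named genes. All 10 genes passed the filter on dim probes and were among the 16695 genes tested. Total RNA of normal mouse (Mus musculus) liver was hybridised to 11 Agilent arrays of the 4x44k design. Embryonic livers of stages E14.5 and E18.5 and adult livers (P56) were represented by 3 arrays each, and postnatal day 5 (P5) by 2, numbered 2 and 3. The array labels give the embryonic days as 14 and 18, while the text of the study writes E14.5 and E18.5. On every array there was liver RNA in the Cy5 channel and, in the Cy3 channel, a commercial RNA of normal adult mouse liver that served all arrays, with no dye swap. Every value below is a log2 ratio of liver over this adult reference, so that 0 is the level in the reference. The sources name whole livers, while a label for the cell type reads hepatoblasts at E14.5, immature hepatocytes at E18.5 and hepatocytes at P5 and P56, and whether an embryonic array held isolated cells was not settled. The methods name C57BL/6 mice for embryonic livers taken into culture, and the strain of the other livers, the sex and any pooling of animals are not given in the sources used here, the livers carry no transgene or treatment in the labels, and the replicates are labelled as biological.

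Hepatocytes make bile acids from cholesterol. In the classic pathway Cyp7a1 places the first hydroxyl group on cholesterol and Cyp8b1 steers the product towards cholic acid, while Cyp27a1 and Cyp7b1 open an alternative pathway through oxysterols. Slc27a5 (bile acid CoA ligase) activates bile acids and Baat joins them to taurine or glycine. Slc10a1 takes bile acids up from the blood, and Abcb11, Abcc2 and Abcb4 export bile acids, organic anion conjugates and phosphatidylcholine across the canalicular membrane into bile.

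The probes decide what the arrays could see of each gene. Some of those on which the results turn are shown 5′ to 3′ in lower case. Positions are on mm7 as the array files give them. Cyp7a1, Baat and Abcb4 had 2 probes each and the other 7 genes had 1. The brighter Cyp7a1 probe lies on the minus strand at chr4:6193456-6193515, and the dimmer one on the same strand within chr4:6195632-6196238, a span of 607 bases for a probe of 60 bases. The brighter Baat probe, whose sequence is not shown, lies on the minus strand at chr4:49503287-49503298, a span of 12 bases for a probe of 60 bases. The Abcb11 probe lies on the minus strand at chr2:69168882-69168941, and the Slc10a1 probe on the minus strand at chr12:78923269-78923328. The Abcb4 probes lie on the plus strand, the brighter at chr5:8996752-8996811 and the dimmer at chr5:8978600-8978659. The first 30 bases are shown where a probe may lie beyond the coding sequence, and the whole probe elsewhere.
Cyp7a1, brighter probe, first 30 bases: ttgtttttaaaacaagttttatgactccct
Cyp7a1, dimmer probe: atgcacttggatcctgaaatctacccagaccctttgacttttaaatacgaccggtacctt
Slc10a1: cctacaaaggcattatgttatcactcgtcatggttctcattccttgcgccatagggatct
Abcb11, first 30 bases: ccaccatgtcacctgatgtcccttactcct
Abcb4, brighter probe: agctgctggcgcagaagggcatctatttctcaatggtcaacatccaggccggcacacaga
Abcb4, dimmer probe: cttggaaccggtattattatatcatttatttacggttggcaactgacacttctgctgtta

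Each array held 43379 spots besides controls. P56 replicate 2 had the fewest spots well above background in Cy5, 16790, and the other 10 arrays had 20131 to 25718. The arrays fell into 4 scans: the first held the 3 arrays of E14.5 and E18.5 replicate 1, the second E18.5 replicates 2 and 3, the third P5 replicate 2, and the fourth P5 replicate 3 and the 3 arrays of P56. No member spot was saturated or missing, and with 1 exception, the dimmer Cyp7a1 probe at E14.5, the Cy5 signal of every member probe stood well above background on each of the 11 arrays. The labelled hepatocyte identity was checked on a list of 18 measured genes of mature hepatocytes, whose mean per array lay between -3.55 and -3.41 at E14.5, between -1.38 and -1.25 in E18.5 livers, and was -0.57 to -0.51 at P5 and -0.35 to 0.21 at P56. Genes of other cells moved as well. The mean of 13 erythroid genes lay between 3.36 and 3.54 on the E14.5 arrays, between 3.00 and 3.28 on those of E18.5, and was 2.22 to 2.87 at P5 and -0.095 to 0.057 at P56, and that of 7 hepatoblast genes was 3.71 to 3.81 at E14.5, 3.97 to 4.10 in E18.5 livers, 3.29 to 3.56 at P5 and 0.0089 to 0.32 at P56. The mean of 14 cell cycle genes was 3.18 to 3.32 at E14.5, 2.93 to 3.01 in E18.5 livers, 2.36 to 3.03 at P5 and -0.57 to -0.23 at P56. All 11 macrophage genes and 7 of 10 endothelial genes passed the test as higher in E18.5 livers than in those of E14.5, against 24.5% of all genes tested. In such bulk RNA, fewer hepatocytes and less RNA per hepatocyte cannot be told apart, and the part of these cell types in the results below was not tested.

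All 10 genes were higher at P56 than at E14.5, where 36.2% of all genes tested were called higher and 34.7% lower, but they got there in different intervals. A gene was called when limma's test over all 11 arrays gave a Benjamini-Hochberg adjusted p under 0.05. Between E14.5 and E18.5, 8 of the 10 genes were called higher and none lower (Cyp27a1 and Cyp7b1 did not pass), against 24.5% of all genes called higher and 22.9% lower. From E18.5 to P5, Baat, Slc27a5 and Abcb4 were called higher and Cyp7a1 lower, against 7.31% and 6.39% of all genes. From P5 to P56, 7 genes were called higher and 1, Abcb4, lower, against 21.0% and 24.7%. P56 against E18.5 also gave 7 higher and 1 lower, again Abcb4, against 31.3% and 33.5%. P5 against E14.5 gave 9 higher and none lower, Cyp7b1 being the gene that did not pass, against 24.8% and 24.2%. The median log2 change of the 10 genes was 1.73 up to E18.5, 0.32 for the step from there to P5 and 0.89 for the step on to P56, and that of all genes tested was -0.013, 0.00032 and -0.020. Calls that involve P56 depended on the scaling. With median centring of the arrays instead of loess, the share of all calls that were higher went from 46.0% to 6.88% at P56 against P5, from 48.3% to 15.0% at P56 against E18.5 and from 51.0% to 23.0% at P56 against E14.5. Of the 10 genes, 3 were then called higher (Cyp7a1, Cyp7b1 and Baat) and 2 lower (Abcc2 and Abcb4) at P56 against P5. Of the 16695 genes tested, 654 were called higher and 8854 lower there. At P56 against E14.5, 9 of the 10 were called higher, against 2453 of all genes higher and 8235 lower. Abcb4 was at 0.12 in that comparison (limma adjusted p = 0.62).

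**Figure D1:**
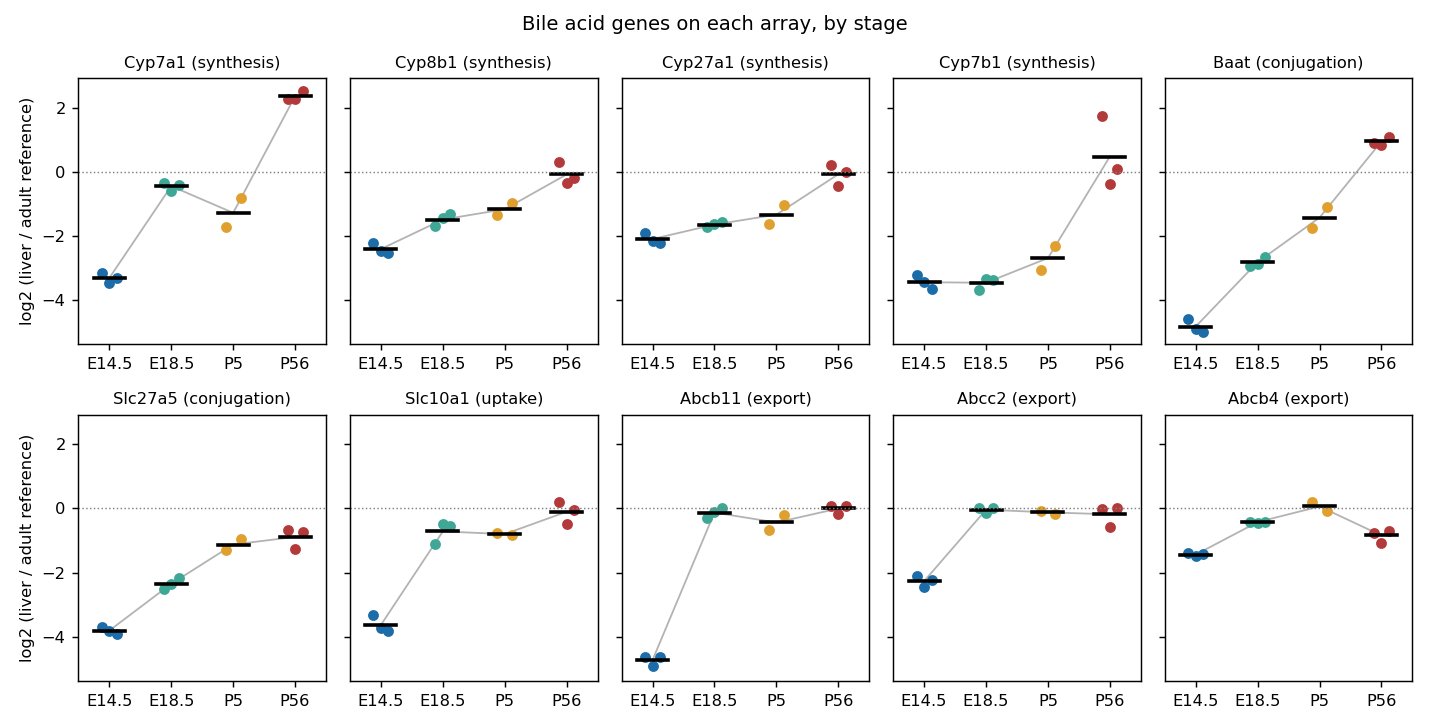
Log2 ratio of liver over the adult reference (y axis) for each of the 10 genes by stage (x axis). Each point is 1 array, black bars are stage means joined by a grey line, and the dotted line at 0 is the reference. Abcb11 rises from -4.73 to -0.13 between E14.5 and E18.5 and then lies near 0, while Cyp7b1 is at -3.44 and -3.46 at E14.5 and E18.5 and reaches 0.47 at P56.

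Cyp7a1, the rate-limiting enzyme of the classic pathway, was measured at -3.17, -3.46 and -3.31 on the E14.5 arrays, -0.35, -0.59 and -0.40 at E18.5, -1.73 and -0.83 at P5, then 2.26, 2.27 and 2.53 at P56. No stage overlapped another, and the order from low to high was E14.5, P5, E18.5, P56, with P56 above the adult reference. The rise from E14.5 to E18.5 was 2.86 ± 0.19 (SE) on the log2 scale, 7.27-fold (limma adjusted p = 2.3e-07), and that from P5 to P56 was 3.64 ± 0.21, 12.4-fold (adjusted p = 1.3e-07). The first rise was called under all 28 other settings, with log2 changes of 1.90, for the mean over both probes, to 4.58, for Agilent's processed signals. Between E18.5 and P5 Cyp7a1 fell by 0.83 ± 0.21 (adjusted p = 0.023). This fall was not called without E18.5 replicate 1 (adjusted p = 0.068), without E18.5 replicate 3 (0.072) or without P5 replicate 2, where the change was -0.38 (0.11). The P5 and E18.5 arrays share no scan, so scan and stage cannot be told apart there for any gene.

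The dimmer Cyp7a1 probe gave the same order of stages, with smaller steps from E18.5 on. Its log2 ratios were -0.53, -0.98 and -0.80 at E14.5, 0.19, 0.076 and 0.21 at E18.5, -0.43 and -0.022 at P5, then 1.50, 0.47 and 1.05 at P56. This probe was not well above background on any E14.5 array, so the E14.5 level is a bound: in the Cy5 channel E18.5 was at least 1.82-fold higher and P5 at least 1.35-fold. The bound is open to dye bias. It takes, on each E14.5 array, the higher of the lowest signal well above background and the probe's own signal. The probe's own signal set it throughout, so the folds are those of the measured means, without allowance for the spread between arrays. The dimmer probe's raw Cy5 signal was 36.1 to 40.8 at E14.5 and 78.3 to 134 at E18.5, against 53.9 to 67.0 and 459 to 635 for the brighter probe. The brighter probe's local background was 39 to 42 at E14.5. Its E14.5 level and the rise from there thus rest on low signal as well. With the probes averaged, the fall of Cyp7a1 from E18.5 to P5 was 0.61 and did not pass (adjusted p = 0.066).

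**Figure D2:**
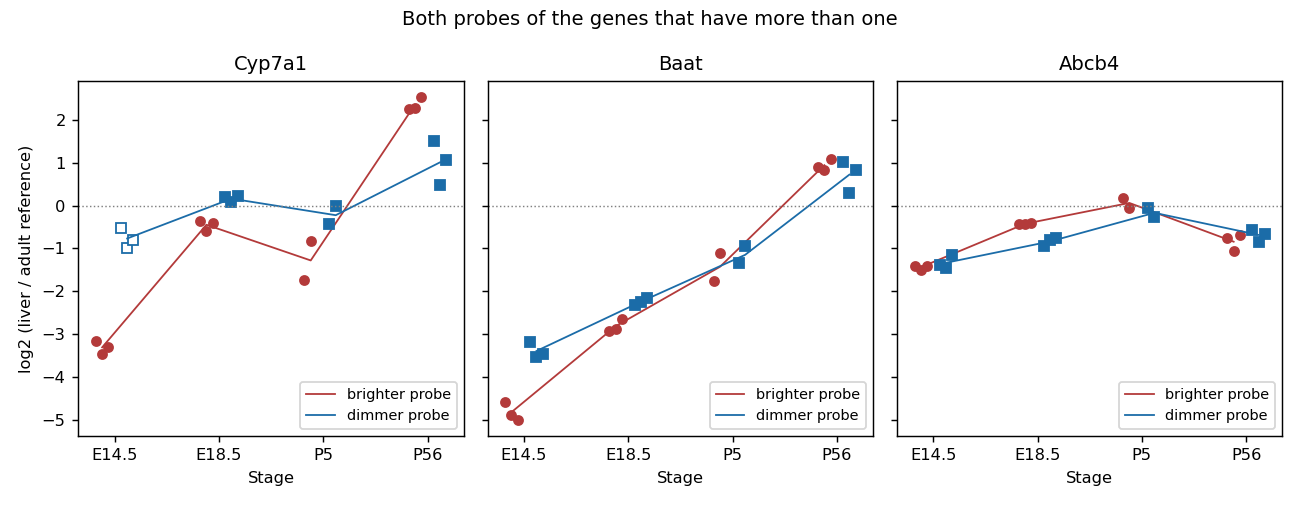
Log2 ratio over the adult reference (y axis) by stage (x axis) for both probes of Cyp7a1, Baat and Abcb4; red circles are the brighter and blue squares the dimmer probe, each point is 1 array, lines join stage means, and open symbols are not well above background in Cy5. The dimmer Cyp7a1 probe has open symbols at E14.5, where its level is a bound and the brighter probe is at -3.31. The Baat probes share the order of stages, and the Abcb4 probes differ in the order of E18.5 and P56.

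Cyp8b1, the sterol 12-alpha-hydroxylase, rose in smaller steps. It was at -2.22, -2.48 and -2.53 at E14.5, -1.69, -1.46 and -1.32 at E18.5, -1.35 and -0.99 at P5, then 0.29, -0.36 and -0.19 at P56. The E18.5 and P5 arrays overlapped, and the other stages stood apart. The change was 0.92 ± 0.17 (SE) from E14.5 to E18.5 (limma adjusted p = 0.00093) and 1.08 ± 0.19 from P5 to P56 (adjusted p = 0.00074), while that from E18.5 to P5 was 0.32 with a 95% interval of -0.099 to 0.74 (adjusted p = 0.30). The rise from E14.5 to E18.5 was called under all 28 other settings, with log2 changes of 0.70 to 1.87. The E14.5 level rests on low Cy5 signal, 59.0 to 78.6 over a local background of 34 to 38. With median centring in place of loess, the step from P5 to P56 was 0.21 and was not called (adjusted p = 0.53).

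Cyp27a1, the mitochondrial sterol 27-hydroxylase, was called higher from P5 to P56 and in neither of the earlier intervals. Its values were -1.90, -2.17 and -2.22 at E14.5, -1.73, -1.63 and -1.58 at E18.5, -1.64 and -1.04 at P5, then 0.21, -0.44 and -0.0090 at P56. E14.5 and E18.5 were without overlap, yet the change of 0.45 ± 0.18 (SE) did not pass the test (limma adjusted p = 0.058), and it passed under 13 of 28 other settings, with a log2 change of 0.33 to 0.78 over all 28. E18.5 and P5 overlapped, and their difference of 0.31 had a 95% interval of -0.13 to 0.75. Over both intervals together, P5 was called higher than E14.5, by 0.76 ± 0.20 (limma adjusted p = 0.0079). That call held under 23 of 27 other settings. From P5 to P56 Cyp27a1 rose by 1.26 ± 0.20 (adjusted p = 0.00035), and within the fourth scan by 0.96. This step was 0.37 and was not called with median centring in place of loess (adjusted p = 0.29).

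Cyp7b1, the oxysterol 7-alpha-hydroxylase, was called higher in the last interval and in neither of the earlier ones. It was at -3.22, -3.45 and -3.66 at E14.5, -3.69, -3.33 and -3.37 at E18.5, -3.07 and -2.31 at P5, then 1.73, -0.39 and 0.080 at P56. E14.5 and E18.5 overlapped, the P5 arrays were somewhat higher, and the P56 arrays stood apart from all others but spread widely among themselves (SD 1.11). The change from E14.5 to E18.5 was -0.018, with a 95% interval of -0.93 to 0.89 (limma adjusted p = 0.98). That from E18.5 to P5 was 0.77 ± 0.47 (adjusted p = 0.30, or 0.037 without P56 replicate 1). The fit shares 1 spread over the 4 stages, so the wide spread at P56 enters both. The SD was 0.22 at E14.5 and 0.20 at E18.5. From P5 to P56 Cyp7b1 rose by 3.16 ± 0.47, 8.96-fold (adjusted p = 0.0002), with P56 replicate 1 the highest array. Without that array the rise was 2.54, 5.8-fold (adjusted p = 1e-05). Slco1a1, an organic anion transporter of the sinusoidal membrane, had its P56 arrays in the same order, at 0.65, -0.64 and -0.36. That order was not particular to Cyp7b1 and Slco1a1. The mean of the 18 mature hepatocyte genes had it too, at 0.21, -0.35 and 0.012.

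Cyp7a1 of the classic and Cyp7b1 of the alternative pathway were compared within each array as the log2 ratio of Cyp7a1 minus that of Cyp7b1. This difference was 0.13 ± 0.20 (SD, n = 3) at E14.5, 3.01 ± 0.30 (n = 3) at E18.5, 1.41 ± 0.10 (n = 2) at P5 and 1.88 ± 1.17 (n = 3) at P56. Between E14.5 and E18.5 it grew by 2.88, with no overlap (2-sided exact permutation p = 0.1, the smallest that 3 arrays against 3 allow). It was lower by 1.60 at P5 than at E18.5 (exact p = 0.2, the smallest for 2 against 3), and differed by 0.47 between P5 and P56 (exact p = 0.6). These 3 steps and the 3 of the transporter pair below made 6 tests, none of which could reach 0.05. The E14.5 difference rests on the low Cy5 signal of Cyp7a1 at that stage.

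The conjugation enzymes rose over all intervals up to P5. Baat, the bile acid CoA:amino acid N-acyltransferase, rose by 5.77 ± 0.17 (SE) on the log2 scale from E14.5 to P56 by its brighter probe, and by 4.94 with its probes averaged. It was at -4.59, -4.89 and -5.00 at E14.5, -2.92, -2.87 and -2.65 at E18.5, -1.76 and -1.10 at P5, then 0.89, 0.84 and 1.09 at P56. No stage overlapped another. The steps were 2.01 ± 0.17 (SE; limma adjusted p = 1.6e-06), 1.39 ± 0.19 (adjusted p = 0.00066) and 2.37 ± 0.19 (adjusted p = 1.6e-06), 54.4-fold from E14.5 to P56. The dimmer Baat probe had steps of 1.15, 1.09 and 1.87 in the same direction.

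Slc27a5, which activates bile acids for conjugation, was at -3.70, -3.82 and -3.91 at E14.5, -2.52, -2.36 and -2.18 at E18.5, -1.31 and -0.94 at P5, then -0.68, -1.26 and -0.72 at P56. The 2 prenatal stages stood apart from each other and from the later stages, and P5 and P56 overlapped. Slc27a5 rose by 1.46 ± 0.16 (SE) from E14.5 to E18.5 (limma adjusted p = 1.7e-05) and by 1.22 ± 0.18 to P5 (adjusted p = 0.0012). The step to P5 kept its call under 25 of 27 other settings. It was not called with the deposited table (limma adjusted p = 0.066) or with the methods' t-test after adjustment (0.13). From P5 to P56 the change was 0.24, with a 95% interval of -0.15 to 0.63 (adjusted p = 0.30). By P5 it had covered 91.8% of its log2 change from E14.5 to P56, against 58.9% for Baat.

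Slc10a1 (NTCP), the sodium-dependent uptake carrier of the sinusoidal membrane, made most of its change before birth. It was at -3.33, -3.73 and -3.83 at E14.5, -1.10, -0.49 and -0.56 at E18.5, -0.76 and -0.84 at P5, then 0.21, -0.48 and -0.040 at P56. All later arrays lay above those of E14.5, E18.5 and P5 overlapped, and P56 stood above P5. The rise to E18.5 was 2.91 ± 0.20 (SE), 7.53-fold (limma adjusted p = 3.3e-07), which is 82.6% of the log2 change from E14.5 to P56. The step from P5 to P56, 0.70 ± 0.22 (adjusted p = 0.024), kept its call under 18 of 28 other settings. It was not called with the scan as a fixed block (0.74, adjusted p = 0.055), without either P5 array, or without P56 replicate 1 or 3, where the adjusted p was 0.065 to 0.080. With median centring in place of loess, which moved the median of all genes in this interval to -0.47, the step of Slc10a1 was -0.036.

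Abcb11 and Abcc2 reached the level of the adult reference by E18.5. Abcb11 (BSEP), the bile salt export pump, was at -4.62, -4.92 and -4.64 at E14.5, -0.29, -0.12 and 0.018 at E18.5, -0.68 and -0.20 at P5, then 0.075, -0.17 and 0.086 at P56. The E14.5 arrays stood far below all others, and E18.5 overlapped both P5 and P56. The rise from E14.5 to E18.5 was 4.60 ± 0.14 (SE), 24.2-fold (limma adjusted p = 1.5e-09), the largest of the 10 genes in that interval, and within the first scan it was 4.43. This step made 97.3% of the log2 change from E14.5 to P56, and P56 differed from E18.5 by 0.13 with a 95% interval of -0.19 to 0.44. The step from P5 to P56, 0.44 ± 0.16 (adjusted p = 0.044), kept its call under 11 of 28 other settings and was 0.19 within the fourth scan and -0.10 with median centring.

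Abcc2 (MRP2), the exporter of conjugated organic anions, followed a similar course. It was at -2.11, -2.45 and -2.24 at E14.5, 0.00056, -0.14 and 0.012 at E18.5, -0.076 and -0.17 at P5, then -0.017, -0.57 and 0.027 at P56. The stages from E18.5 on overlapped one another. Abcc2 rose by 2.23 ± 0.15 (SE) from E14.5 to E18.5, 4.68-fold (limma adjusted p = 2.8e-07), and its later changes were -0.082 (95% interval -0.45 to 0.28) to P5 and -0.062 (-0.43 to 0.30) from there to P56. With median centring in place of loess, Abcc2 was called lower at P56 than at P5 (-0.96, adjusted p = 0.0057) and than at E18.5 (-0.98, 0.0019). The low value of P56 replicate 2, the array with the fewest spots above background, sets the spread at P56.

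Abcb4 (MDR2), the phosphatidylcholine floppase, was the gene that peaked before adulthood. It was at -1.40, -1.50 and -1.42 at E14.5, -0.42, -0.44 and -0.42 at E18.5, 0.19 and -0.067 at P5, then -0.77, -1.07 and -0.70 at P56. No stage overlapped another, and the order was E14.5, P56, E18.5, P5. Abcb4 rose by 1.01 ± 0.11 (SE) to E18.5 (limma adjusted p = 1.5e-05) and by 0.49 ± 0.12 to P5 (adjusted p = 0.023), then fell by 0.90 ± 0.12 to P56 (adjusted p = 0.00012). The rise to P5 was not called when any E18.5 array was left out (adjusted p = 0.055 to 0.067) or without P5 replicate 2 (0.36, adjusted p = 0.10). P56 was below E18.5 by the brighter probe (-0.42 ± 0.11, adjusted p = 0.0057), but the dimmer probe had P56 above E18.5 by 0.15, and the mean of both was -0.13 (adjusted p = 0.28). The dimmer probe's Cy5 signal at P56 was low, 55.5 to 147 over a local background of 32 to 34. The brighter probe's was 2992 to 7214. Both probes had P56 below P5, with log2 changes of -0.90 and -0.52.

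**Figure D3:**
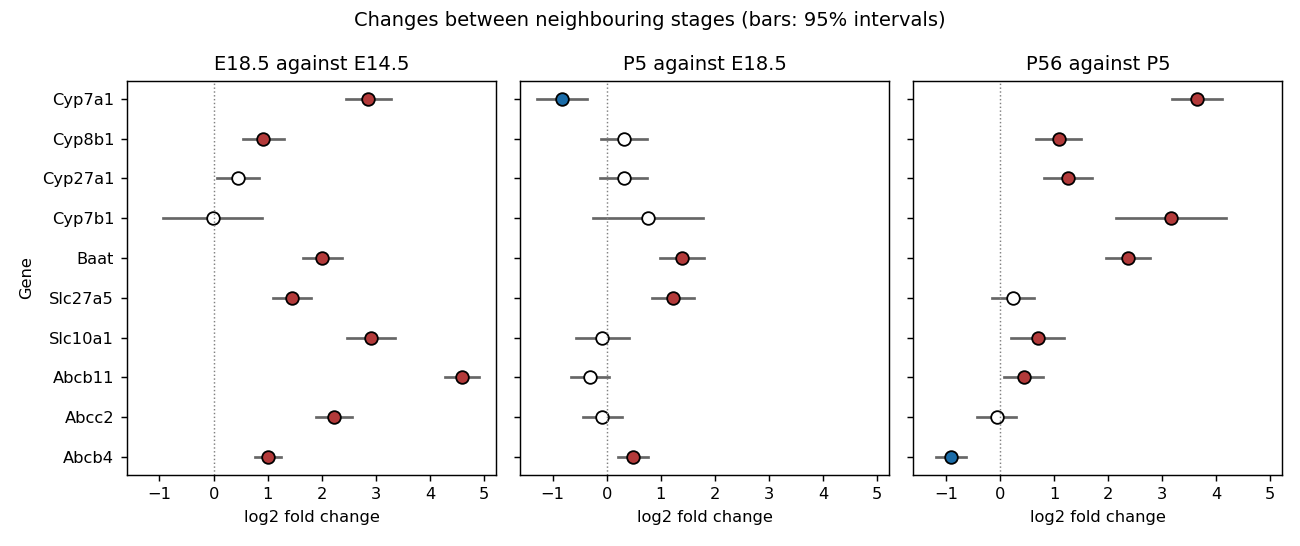
Log2 fold change (x axis) of the 10 genes (y axis) between neighbouring stages. Bars are 95% intervals of the limma fit, red points were called higher, blue lower and open points not called. Abcb11 and Abcc2 change mainly in the first panel. Cyp7a1, Cyp8b1, Cyp27a1, Cyp7b1 and Baat have their largest step in the last.

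Export and uptake were compared within each array as the log2 ratio of Abcb11 minus that of Slc10a1. The difference was -1.10 ± 0.26 (SD, n = 3) at E14.5, 0.59 ± 0.21 (n = 3) at E18.5, 0.36 ± 0.40 (n = 2) at P5 and 0.10 ± 0.22 (n = 3) at P56. It grew by 1.68 from E14.5 to E18.5 with no overlap (2-sided exact permutation p = 0.1, the smallest possible), so that Abcb11 rose by more than Slc10a1. It then differed by -0.23 and -0.26 over the next 2 steps (exact p = 0.6 for each).

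Sequence upstream of the start was read for the 6 of the 10 genes that RefSeq's table for GRCm38.p6 held, namely Cyp8b1, Cyp27a1, Slc10a1 (2 starts), Abcb11, Abcc2 and Abcb4. Both strands of the 250 bases before each start were searched for AGGTCA, the core hexamer bound by many nuclear receptors, TATAAA, the TATA box, GTTAAT, part of the HNF1 site, and CAAAGTCCA, a site bound by HNF4. AGGTCA was found upstream of Abcb11, Abcc2 and 1 of the Slc10a1 starts and in 14.0% of all 32851 upstream regions, TATAAA upstream of Cyp8b1 and the other Slc10a1 start and in 12.4%, CAAAGTCCA upstream of Cyp8b1 and in 0.384%, and GTTAAT in none of the 6 genes and in 6.43%. TATAAA lay on the strand of the gene at bases -31 to -26 from the start in Cyp8b1. In Slc10a1 it lay on the other strand, at -128 to -123. These letter matches are descriptions and were not tested as sites. The regions of the exporters that rose most by E18.5 and of Cyp8b1 are shown 5′ to 3′ on the strand of the gene with the matches in capitals. They lie at chr2:69342617-69342866 (minus strand) for Abcb11, chr19:43782058-43782307 (plus strand) for Abcc2 and chr9:121916306-121916555 (minus strand) for Cyp8b1. In Abcb11 the capitals are AGGTCA read on the other strand.
Abcb11: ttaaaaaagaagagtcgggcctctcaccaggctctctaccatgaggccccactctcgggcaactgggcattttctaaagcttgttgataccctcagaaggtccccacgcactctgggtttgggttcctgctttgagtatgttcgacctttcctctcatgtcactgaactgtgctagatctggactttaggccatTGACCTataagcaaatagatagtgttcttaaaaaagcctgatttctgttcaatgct
Abcc2: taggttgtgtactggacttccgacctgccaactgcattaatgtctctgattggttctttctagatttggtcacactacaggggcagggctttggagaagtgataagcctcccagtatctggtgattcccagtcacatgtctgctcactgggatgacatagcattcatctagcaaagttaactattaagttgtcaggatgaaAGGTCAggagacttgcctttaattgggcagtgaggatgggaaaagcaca
Cyp8b1: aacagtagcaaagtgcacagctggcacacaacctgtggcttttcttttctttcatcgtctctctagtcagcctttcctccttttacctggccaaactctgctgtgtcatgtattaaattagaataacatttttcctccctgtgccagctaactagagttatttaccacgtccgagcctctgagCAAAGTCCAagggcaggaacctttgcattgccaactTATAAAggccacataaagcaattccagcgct

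The other genes of the pathway were described from 3 lists. Of 14 other synthesis genes, 11 were called higher and none lower at E18.5 against E14.5, with a median log2 change of 1.90, against 24.5% and 22.9% of all genes. At P56 against E18.5 they were 9 higher and 2 lower, with a median of 0.65, against 31.3% and 33.5% of all genes. Cyp2c70, which makes muricholic acids in mice, rose by 3.88 ± 0.16 (SE) from E14.5 to E18.5 (limma adjusted p = 7.6e-09), Cyp39a1, an oxysterol 7-alpha-hydroxylase, by 3.69 ± 0.19 (3.2e-08) and Akr1c6 by 3.29 ± 0.17 (3.6e-08). From E18.5 to P56 Akr1c6 rose by a further 5.07 ± 0.17 (9.6e-10), Abcd3, a peroxisomal transporter of bile acid precursors, by 1.53 ± 0.11 (4.4e-07) and Amacr, a peroxisomal racemase, by 1.29 ± 0.18 (5e-05). Cyp39a1 fell over that interval by 1.11 ± 0.19 (0.00026), while Cyp7b1 rose by 3.93 ± 0.42 (6.6e-06), or by 3.31 without P56 replicate 1; both act on oxysterols.

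Of 17 other transporters of bile acids and biliary lipids, 7 were called higher and 1 lower at E18.5 against E14.5, with a median of 0.32, against 24.5% and 22.9% of all genes. At P56 against E18.5 they were 10 higher and 2 lower, with a median of 0.86, against 31.3% and 33.5%. Slco1b2, a sinusoidal carrier like Slc10a1, rose by 4.50 ± 0.17 (SE) from E14.5 to E18.5 (limma adjusted p = 3.7e-09). Atp8b1, a canalicular phospholipid flippase, rose by 1.22 ± 0.10 (2.1e-06) and its partner subunit Tmem30a by 1.43 ± 0.11 (8.8e-07). From E18.5 to P56 the largest rises were those of Slco1a1 (3.97 ± 0.37, 2.2e-06), Slco2b1 (3.91 ± 0.17, 4.9e-09) and Slco1b2 (3.15 ± 0.17, 2.6e-08), all carriers of organic anions, where Slc10a1 rose by 0.61 ± 0.20 (0.018). This rise of Slc10a1 kept its call under 20 of 27 other settings, not without E18.5 replicate 1 or without P56 replicate 1 or 3 (adjusted p = 0.055 to 0.085), and was 0.0095 with median centring (adjusted p = 0.98).

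Of 18 regulators of bile acid genes 17 were tested, and 14 were called higher and none lower at E18.5 against E14.5, with a median of 1.42, against 24.5% and 22.9% of all genes. Nr1h4 (FXR), the bile acid receptor, was at -3.51 ± 0.15 (SD, n = 3) at E14.5, -1.16 ± 0.16 (n = 3) at E18.5, -1.11 ± 0.08 (n = 2) at P5 and 0.15 ± 0.11 (n = 3) at P56. It rose by 2.35 ± 0.11 (SE) in the first interval (limma adjusted p = 2.5e-08) and by 1.26 ± 0.13 in the last (1.2e-05), while the change between them was 0.045 (0.86). Rxra, its heterodimer partner, rose by 1.42 ± 0.10 to E18.5 (6.2e-07) and was then at -1.26, -1.15 and -1.22 at E18.5, P5 and P56, with no later step called. Ppara, a fatty acid receptor, rose by 2.03 ± 0.11 (4.8e-08) and the transcription factor Foxa2 by 1.70 ± 0.15 (3.5e-06) from E14.5 to E18.5. At P56 against E18.5 9 regulators were called higher and 4 lower, against 31.3% and 33.5% of all genes, led by Nr1h3 (LXR alpha, 1.55 ± 0.11, 2.6e-07), Nr1i3 (CAR, 1.33 ± 0.15, 1.2e-05) and Nr1h4 (1.30 ± 0.11, 1.5e-06).

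**Figure D4:**
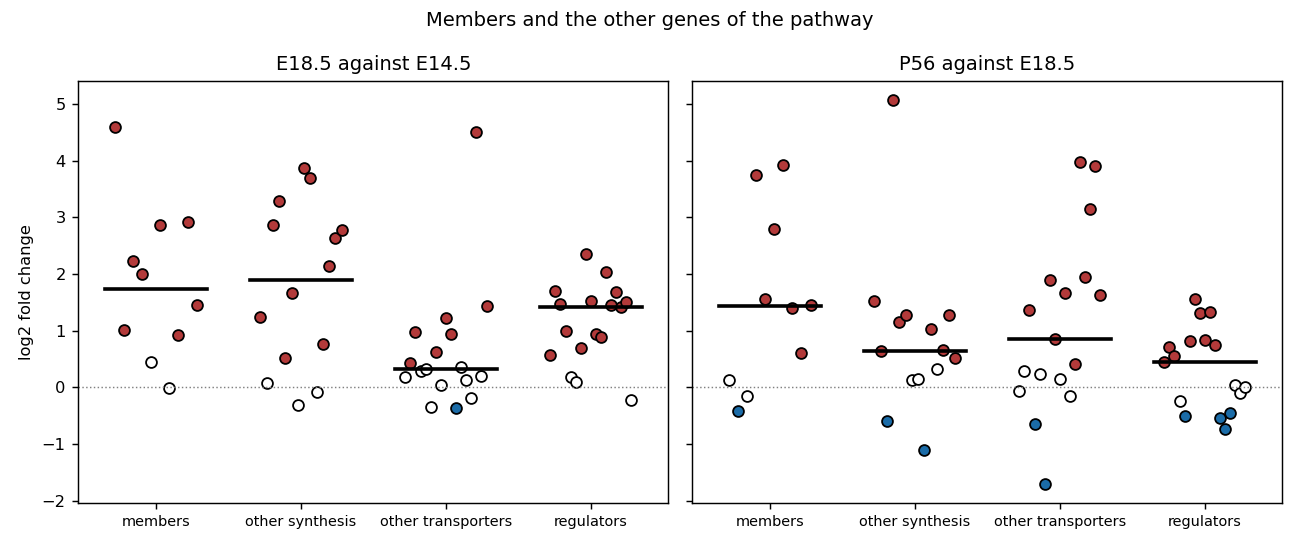
Log2 fold change (y axis) of single genes in 4 lists (x axis), at E18.5 against E14.5 and at P56 against E18.5. Red points were called higher, blue lower and open points not called, and bars are list medians, which for the members, other synthesis genes, other transporters and regulators are 1.73, 1.90, 0.32 and 1.42 in the first panel.

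For each of the 10 genes, the 2 other tested genes with the highest Pearson's r over the 11 arrays were found, and these r lay between 0.984 and 0.999. They describe 4 stages more than 11 separate points, since replicates of a stage share their level. Abcb11 was followed by C87436 (0.996) and F13b, the coagulation factor XIII B chain (0.995), and Slc27a5 by coagulation factor F7 (0.996) and Dcxr (0.994). Baat was followed by Bbox1 (0.999) and Pgrmc1 (0.998), Cyp7b1 by Gadd45g and Mug2 (both 0.994), Cyp8b1 by Scnn1a (0.994) and Olfr399 (0.993), and Cyp27a1 by Aox1 (0.994) and Cyp2j13 (0.993). Cyp7a1 was followed by C730043O17 (0.996) and C130065N10Rik (0.995), Slc10a1 by Lztr2 (0.994) and Zbtb20 (0.993), Abcc2 by 6230410P16Rik and Dpys (both 0.994), and Abcb4 by Nnt (0.986) and Acadl (0.984).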

How the data were processed

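Spot intensities of both channels, which the authors deposited as written by Feature Extraction with no normalization between arrays, were the main data. The authors also deposited lowess-normalized log2 ratios per gene, used as an alternative only; per the labels the authors used limma. Pearson's r of these columns with the ratios computed here was 0.815 to 0.931 over 16695 genes, the column medians were -0.056 to 0.046, and their handling of probes is not given in the sources used here. Mean signals and median local background were corrected with normexp (offset 50), then loess was run on the log ratios of each array, in limma 3.58.1 and R 4.3.3. Control spots and spots marked as outliers were left out, and replicate spots were averaged. Probes entered when every array of some stage had them well above background in the Cy5 channel and no stage lacked more than 1 value, and each gene was represented by its brightest probe. Loess sets the middle of each array at 0, so values are relative to the other genes.

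Stages were compared with lmFit and eBayes over all 11 arrays and Benjamini-Hochberg adjustment at 0.05, and the gene pairs by exact permutation tests. Alternatives were other background corrections, normalizations, filters and probe rules, the deposited table, Cy5 alone, blocks for scan and replicate number, each array left out, and the methods' t-test. The arrays are few, which limits the precision, and p-values measure the spread between them.

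The 10 genes and the lists were chosen with earlier results of these data known. The text names the 10 genes, in each of 3 pathway lists up to 3 called genes with the largest change at E18.5 against E14.5 and at P56 against E18.5, the 2 genes most like each member, Rxra and Nr1h4. Cyp39a1 at P56 against E18.5 and the P56 values of Slco1a1 were added after their values were seen. Gene names are those of the array. Upstream sequence came from RefSeq, and the motifs were chosen after the sequences were read. Plots used Python 3.11.15 with matplotlib 3.10.9.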

Additional observations from a re-analysis of the deposited data

How the results depend on the processing

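Of the 10 genes, 9 at E18.5 against E14.5, 9 at P56 against E14.5, 8 at P5 against E14.5, 6 at P56 against E18.5 and 5 at P5 against E18.5 kept their side of the threshold under each alternative run. At P56 against P5 none did, since each of the 10 moved under some alternative. The methods' t-test there called 5 higher and 1 lower at an unadjusted 0.05, against 2538 and 3040 of the 16695 genes. After Benjamini-Hochberg it called 0 higher and 0 lower, against 108 and 195 of all genes. The cause was not tested where none is named.

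With median centring, the median of all genes moved to -0.47 at P56 against P5, -0.42 at P56 against E18.5 and -0.33 at P56 against E14.5. At P56 against P5 it gave 3 members higher and 2 lower (main 7 and 1), against 654 and 8854 of the 16695 genes. Slc10a1 at -0.036 and Abcb11 at -0.10 were reversed there. At P56 against E18.5 median centring gave 2 members lower (main 1), against 8971 of all genes. At P5 against E18.5 it gave 0 lower (main 1), against 557 of all genes, and 1476 genes were called (main 2287). Members lower at P56 against E18.5 were also 0 with Cy5 alone, with the mean over probes and with the deposited table. Of all genes, 5248, 5517 and 4262 were called lower there. Members lower at P5 against E18.5 were 0 with the mean over probes, the deposited table and the fit of the 2 stages compared. Of all genes, 1008, 79 and 674 were called lower under these settings. Members lower were also 0 with the methods' t-test at 0.05 or after adjustment, against 1626 and 19 of all genes. The adjusted test gave 0 members higher, against 38 of all genes. The deposited table gave 1 higher (main 3), against 213 of its 28050 genes. The deposited table had 63.9%, 72.9% and 65.2% of its calls higher at E18.5 against E14.5, P5 against E18.5 and P5 against E14.5 (main 51.8%, 53.4% and 50.7%). Genes called with it were 4798 at E18.5 against E14.5 (main 7912), 292 at P5 against E18.5, 5040 at P56 against P5 (main 7622) and 4550 at P5 against E14.5 (main 8178). At P56 against P5 they were 4685 with the scan as a fixed block and 5013 in the fit of those 2 stages, which uses fewer arrays. The methods' t-test called 3464 genes at 0.05 and 57 after adjustment at P5 against E18.5, and after adjustment 303 at P56 against P5 and 4904 at P5 against E14.5. Cyp7a1 minus Cyp7b1 at P56 against P5 (main 0.47) was -0.73 with the mean over probes and -0.46 with the deposited table.

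With each array left out, members lower at P5 against E18.5 ranged from 0 to 1 and genes called there from 933 (without P5 replicate 3) to 3765 (without P5 replicate 2). Genes called at P56 against P5 ranged from 4738 (without P5 replicate 2) to 8211. Abcb11 minus Slc10a1 ranged from -0.51 to 0.054 at P5 against E18.5, the latter without P5 replicate 2, and from -0.54 to 0.018 at P56 against P5, the latter without P5 replicate 3.

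The replicate numbers did not pair the arrays: over 15 pairs of the same number, r of the deviations from the stage means was -0.30 to 0.19. With the replicate block, 9 members were higher at E18.5 against E14.5 (main 8) and 6 at P56 against P5 (main 7). Of the 16695 genes, 3949 and 3074 were called higher there, and 1725 were called at P5 against E18.5. With the scan as a fixed block, comparisons other than E18.5 against E14.5 and P56 against P5 could not be fitted. The few arrays, 2 at P5, limit all comparisons. Low Cy5 signal limits both Cyp7a1 probes at E14.5. It also limits the Cyp8b1 probe there, at 59.0 to 78.6 over a local background of 34 to 38. The dimmer Abcb4 probe at P56 is limited too, at 55.5 to 147 over 32 to 34.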
